A study of Mus musculus with 6 samples.

Results

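RAW264.7 macrophages, a mouse line from a tumour induced by Abelson leukaemia virus, were compared on zinc alloys with and without added manganese. The manganese-containing group pooled 4 RNA-seq libraries, 2 from cells on CaP Zn0.8Mn and 2 from cells on CaP Zn0.8Mn0.1Li, and the control group was the 2 libraries from cells on CaP Zn, so that all 6 libraries of the series were used. Every material carried a calcium phosphate (CaP) coating over zinc, and CaP Zn0.8Mn0.1Li contained lithium as well as manganese. Cells were harvested after 3 days. No group lacked zinc or the coating, and no group had lithium without manganese, so the comparison concerns manganese on a zinc background, with or without lithium. The members are all genes of the deposited count table, 54532 in number, of which 13156 had enough counts to be tested with 6 libraries and 12965 with 5. RAW264.7 is a transformed line, and no label ties replicates to separate cultures, so the spread that p-values are set against may be technical only.

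Zinc and manganese are both essential metals that cells must import and keep in bounds. Metallothioneins are small cysteine-rich proteins that bind zinc and are switched on by the metal-sensing factor MTF-1 through metal response elements in their promoters, and zinc leaves the cytosol through ZnT exporters. Manganese enters cells through ZIP and NRAMP transporters, several of which also carry iron, and is the cofactor of the mitochondrial superoxide dismutase SOD2. Macrophages sit on any implant, and by adhesion receptors, cytokines, matrix enzymes and factors such as osteopontin they take part in inflammation and in the building and loss of bone.

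The libraries held between 14944070 and 17709290 counts, so that 3 counts, the floor used here, correspond to between 0.169 and 0.201 CPM (counts scaled to library size). 1 library, CaP Zn0.8Mn replicate 1, was unlike the rest. Its log2(CPM + 1) values correlated with theirs across genes at r between 0.912 and 0.929, against 0.993 to 0.996 among the other 5, and mitochondrial transcripts took 7.88% of its counts, against 1.82 to 2.15%. Counts of called genes are therefore given with 6 libraries (4 against 2) and with 5 (3 against 2, without that library). Many log2 fold changes, adjusted p-values and list counts below come from the 5-library fit only and need not hold with 6. What set that library apart was not tested. Macrophage identity genes were present in every library, with a summed level of 14150 to 17955 CPM in CaP Zn and 15714 to 20485 CPM in the manganese-containing libraries. Of the markers of other cell types, 6 of 8 fibroblast, 3 of 8 osteoblast, 5 of 9 lymphocyte, 4 of 8 neutrophil and 6 of 8 epithelial and endothelial genes were at 0 in all libraries. The osteoblast list had the largest sums of these, 13.7 to 15.3 CPM in CaP Zn and 7.73 to 17.69 CPM with manganese.

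With all 6 libraries, 0 of 13156 genes passed an adjusted p of 0.05 between the pooled manganese-containing alloys and CaP Zn (0%; edgeR quasi-likelihood test, two-sided, 4 residual degrees of freedom). DESeq2 and limma-voom also called 0, and 60 genes had an unadjusted p under 0.05 in edgeR, 49 higher and 11 lower. With CaP Zn0.8Mn replicate 1 left out, 2 of 12965 genes passed (0.0154%), Csf3 and Itgam, both higher on the manganese-containing alloys. At an unadjusted p under 0.05 there were 442 genes higher (3.41%) and 358 lower (2.76%) in this fit, and these shares are the background for the gene groups below. Whatever their p, 6320 of all genes tested read higher and 6645 lower in this fit, and 6897 higher and 6259 lower with 6 libraries. The count of 2 rested on every library: without CaP Zn replicate 1 it was 21 genes, without CaP Zn replicate 2 it was 416 (267 higher, 149 lower), without CaP Zn0.8Mn0.1Li replicate 1 it was 3, and without CaP Zn0.8Mn replicate 2 or CaP Zn0.8Mn0.1Li replicate 2 it was 0. All of these counts are at an adjusted p under 0.05 in edgeR. With the same 5 libraries DESeq2 called 45 genes (43 higher, 2 lower), 20 of them among the genes named here, and edgeR without the filter on low counts called 87. Of the named genes, both fits called Spp1, Mt1, Qpct, Itgb7, Itgb2, Adgre1, Cd36, Ctsd, Ctsl, Cfp, Ccl9, Ddit3, Fth1, Gstp1 and Prdx5 higher and Itga4 lower, besides Csf3 and Itgam. Below, a gene is said to have passed or not passed by the filtered edgeR fit unless another is named.

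**Figure D1:**
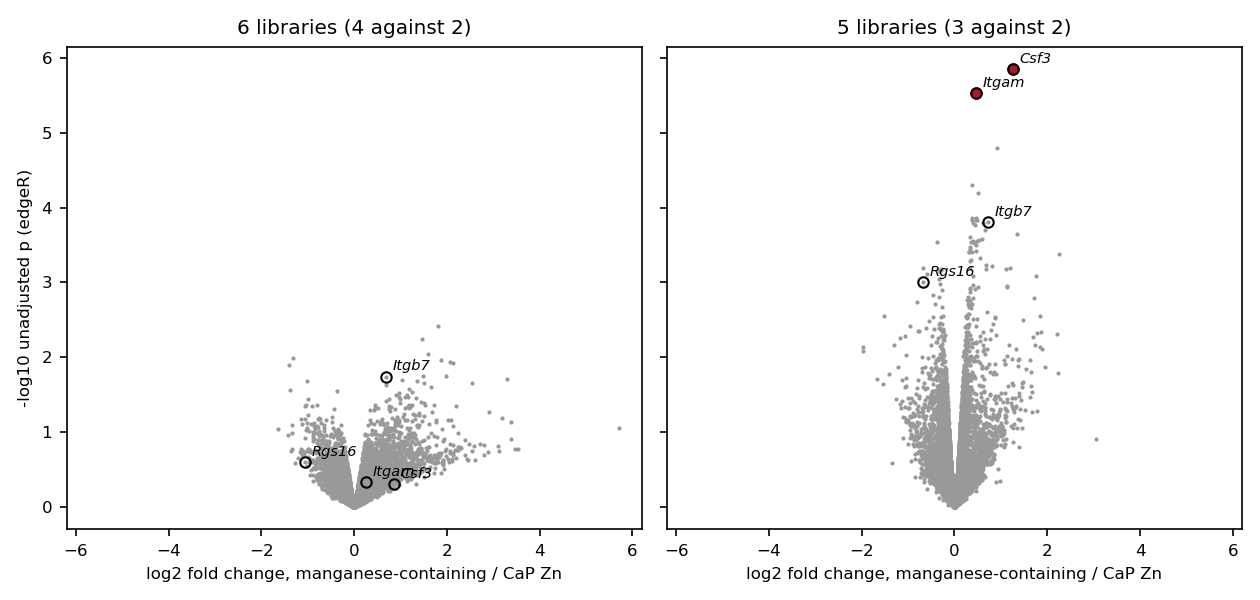
Each point is a gene, with the log2 fold change of the manganese-containing libraries over CaP Zn on the horizontal axis and -log10 of the unadjusted edgeR p on the vertical axis, for 6 libraries (left) and 5 libraries (right, without CaP Zn0.8Mn replicate 1). Filled red points are genes with an adjusted p under 0.05, which are absent on the left and are Csf3 and Itgam on the right. Open black circles mark Csf3, Itgam, Itgb7 and Rgs16 in both panels for reference.

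Csf3 encodes granulocyte colony-stimulating factor, the cytokine that drives the production and release of neutrophils and that activated macrophages secrete. The gene (ENSMUSG00000038067, GRCm38 chr11:98701263-98703629, plus strand) read 5.32 and 5.44 CPM on CaP Zn, 0.198 and 11.8 CPM on CaP Zn0.8Mn, and 11.5 and 15.5 CPM on CaP Zn0.8Mn0.1Li. The value of 0.198 CPM, in CaP Zn0.8Mn replicate 1, is 3 counts, and the other 3 manganese-containing libraries lay above both CaP Zn libraries. Without that library Csf3 rose 2.40-fold (log2 1.27, SE 0.18, adjusted p = 0.0182 in edgeR). With it the log2 fold change was 0.86 with an SE of 1.19 and an adjusted p of 0.9997. Set side by side against the same CaP Zn libraries, the difference was 1.14 on the log2 scale (SE 0.24) for CaP Zn0.8Mn, from 1 library taken to vary like the others, and 1.32 (SE 0.20) for CaP Zn0.8Mn0.1Li. The alloys differed by 0.19 (SE 0.23, adjusted p = 0.9999 in edgeR with 5 libraries).

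Itgam encodes integrin alpha M (CD11b), which pairs with integrin beta 2 to form the complement receptor Mac-1 that macrophages use to adhere to fibrinogen and to engulf complement-coated particles. The gene (ENSMUSG00000030786, GRCm38 chr7:128062640-128118491, plus strand) read 97.1 and 104 CPM on CaP Zn, 65.0 and 140 CPM on CaP Zn0.8Mn, and 140 and 136 CPM on CaP Zn0.8Mn0.1Li. The lone low value was again CaP Zn0.8Mn replicate 1. In the other libraries the groups did not overlap and Itgam rose 1.38-fold, from 100.3 ± 4.57 CPM (SD, n = 2) to 138 ± 2.44 CPM (SD, n = 3), with a log2 fold change of 0.46 (SE 0.070, adjusted p = 0.0192 in edgeR). With all 6 libraries the log2 fold change was 0.26 (SE 0.33). On the log2 scale CaP Zn0.8Mn, from 1 library taken to vary like the others, was 0.48 (SE 0.097) and CaP Zn0.8Mn0.1Li 0.46 (SE 0.080) above CaP Zn, and the difference between them was -0.02 (SE 0.097, adjusted p = 0.9999 in edgeR). Both calls were lost when library totals replaced TMM scaling (adjusted p = 0.0672 for Csf3 and 0.0672 for Itgam in edgeR), with sample weights in limma, and on FPKM values. From bulk RNA, more cells that express a gene and more RNA per cell cannot be told apart, here and for every gene below.

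Itgb2, the partner chain of Itgam, read 247 and 305 CPM on CaP Zn, 286 and 354 CPM on CaP Zn0.8Mn, and 350 and 360 CPM on CaP Zn0.8Mn0.1Li. It did not pass the test (log2 0.36, SE 0.086, adjusted p = 0.188 in edgeR, 5 libraries) and was picked out after its values were seen. So was Qpct, glutaminyl-peptide cyclotransferase, which modifies the ends of chemokines and had the third lowest adjusted p of the 5-library fit (0.0702, edgeR). It read 8.01 and 12.03 CPM on CaP Zn, 4.96 and 20.04 CPM on CaP Zn0.8Mn, and 18.0 and 18.7 CPM on CaP Zn0.8Mn0.1Li. In both genes, as in Itgam and Csf3, all manganese-containing libraries but CaP Zn0.8Mn replicate 1 lay above both CaP Zn libraries.

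**Figure D2:**
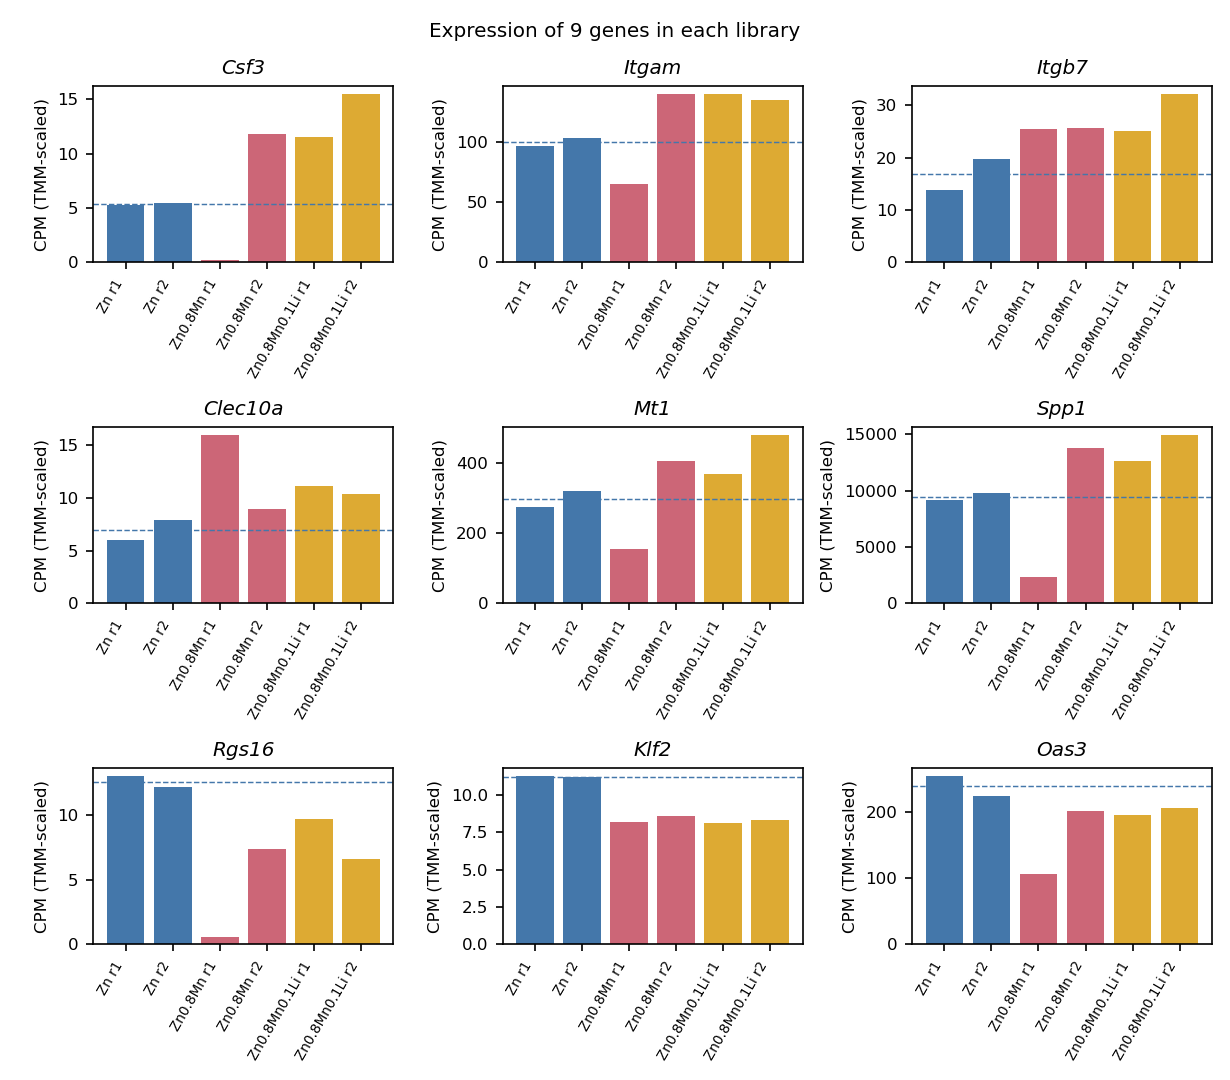
Bars give the level of 9 genes in each of the 6 libraries in CPM with TMM scaling, on axes that start at 0, coloured by alloy, and the dashed line is the mean of the 2 CaP Zn libraries. CaP Zn0.8Mn replicate 1 is the lowest bar for Csf3 (0.198 CPM), Itgam (65.0 CPM), Mt1, Spp1, Rgs16 and Oas3 and the highest for Clec10a. Itgb7, Clec10a, Klf2, Rgs16 and Oas3 read on 1 side of CaP Zn in all 4 manganese-containing libraries.

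The promoters of 4 genes are printed because Itgam is 1 of the 2 genes that passed, Itgb7 is the integrin gene that lay above CaP Zn in all 4 libraries, and Mt1 and Mt2 are the textbook targets of zinc. Csf3 has no entry among the promoters used. Each window runs from 250 bases before to 50 bases after the RefSeq gene start, 5′ to 3′ on the gene's strand, in build GRCm38.p6. Capitals mark matches to the PU.1 core GAGGAA in the integrin genes and to the metal response element core TGCACNC or TGCGCNC in the metallothionein genes, on either strand.
Itgam (chr7:128062390-128062689, plus strand): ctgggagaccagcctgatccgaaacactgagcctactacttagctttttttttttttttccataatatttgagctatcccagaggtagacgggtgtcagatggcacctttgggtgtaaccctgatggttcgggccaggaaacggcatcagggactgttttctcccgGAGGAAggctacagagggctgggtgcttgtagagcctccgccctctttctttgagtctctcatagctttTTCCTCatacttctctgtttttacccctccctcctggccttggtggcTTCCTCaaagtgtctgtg
Itgb7 (chr15:102231886-102232185, minus strand): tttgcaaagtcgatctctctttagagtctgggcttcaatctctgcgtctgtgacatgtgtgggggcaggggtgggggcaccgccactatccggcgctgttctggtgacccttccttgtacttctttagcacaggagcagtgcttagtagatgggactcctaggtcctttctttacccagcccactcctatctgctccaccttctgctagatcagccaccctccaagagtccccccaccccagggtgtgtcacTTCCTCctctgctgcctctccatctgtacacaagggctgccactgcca
Mt1 (chr8:94178839-94179138, plus strand): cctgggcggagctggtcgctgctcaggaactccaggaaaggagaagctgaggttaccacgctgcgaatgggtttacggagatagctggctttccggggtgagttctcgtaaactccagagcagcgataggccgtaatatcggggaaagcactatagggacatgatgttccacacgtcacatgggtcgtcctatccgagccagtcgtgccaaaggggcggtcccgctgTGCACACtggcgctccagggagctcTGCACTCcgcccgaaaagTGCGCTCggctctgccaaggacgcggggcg
Mt2 (chr8:94172368-94172667, plus strand): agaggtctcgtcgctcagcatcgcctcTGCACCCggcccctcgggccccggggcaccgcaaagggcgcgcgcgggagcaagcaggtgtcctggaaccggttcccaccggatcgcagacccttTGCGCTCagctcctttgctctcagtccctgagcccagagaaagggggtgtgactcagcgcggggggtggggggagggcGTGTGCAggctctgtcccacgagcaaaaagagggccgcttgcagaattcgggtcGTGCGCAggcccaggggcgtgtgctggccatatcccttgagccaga

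PU.1 is the transcription factor that specifies the macrophage lineage. Its core was found 3 times in the Itgam window and 1 time in the Itgb7 window. Of 32851 promoter windows of the same length, 28.3% held at least 1 match and 0.685% at least 3. The metal response element core was found 3 times in the Mt1 window and 4 times in the Mt2 window, against 1.97% of windows with at least 3 and 0.517% with at least 4. The AP-1 core TGANTCA was also searched on both strands and matched 1 time, in Mt2, apart from the metal response matches, and 7.81% of windows held it. A match describes the letters of the window only.

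Genes that read the same way on both alloys were taken as those for which all 4 manganese-containing libraries lay beyond both CaP Zn libraries, an order of values against 1 shared pair of controls and not a test. There were 466 such genes above (3.54%) and 428 below (3.25%) of 13156. Such orders also arise among genes that do not change, and more easily with fewer libraries. How many would do so was not estimated, so the counts do not show that any gene changed. Without CaP Zn0.8Mn replicate 1 the counts were 1378 above (10.6%) and 1383 below (10.7%) of 12965. These shares are the background for list members that lay beyond CaP Zn in all 4 or in all 3 libraries. Of the genes with a mean of at least 5 CPM, 274 were above and 305 below, and in 4 above and 2 below each alloy was also at least 1.5-fold from CaP Zn. Of these genes, the 12 in each direction with the largest smaller-of-the-alloys difference are described here. They were chosen by these values, so they are a description without a test, and none had an adjusted p below that of Itgb7 (0.159, edgeR, 5 libraries). Scaling by library totals alone changed the counts to 277 above and 776 below.

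Among the 12 above, Itgb7 encodes integrin beta 7, which pairs with alpha 4 or alpha E in leukocyte homing. Itgb7 (chr15:102215995-102231944, minus strand) read 13.8 and 19.8 CPM on CaP Zn, 25.4 and 25.6 CPM on CaP Zn0.8Mn, and 25.0 and 32.0 CPM on CaP Zn0.8Mn0.1Li. Its log2 fold change was 0.69 (SE 0.22) with 6 libraries and 0.72 (SE 0.15) with 5, so that here CaP Zn0.8Mn replicate 1 moved the estimate little. Itga4, the alpha 4 chain it pairs with, did the opposite in the 5 libraries, at 379 and 354 CPM on CaP Zn, 316 CPM on CaP Zn0.8Mn replicate 2, and 292 and 271 CPM on CaP Zn0.8Mn0.1Li. In CaP Zn0.8Mn replicate 1 Itga4 read 5118 CPM, far above every other library, and Itga4 was picked out after its values were seen.

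Clec10a, a galactose-binding lectin of alternatively activated (M2) macrophages, read 5.97 and 7.93 CPM on CaP Zn, 15.9 and 8.98 CPM on CaP Zn0.8Mn, and 11.2 and 10.4 CPM on CaP Zn0.8Mn0.1Li. Il1rl1, the IL-33 receptor chain ST2, read 9.36 and 10.5 CPM on CaP Zn, 47.7 and 13.1 CPM on CaP Zn0.8Mn, and 13.1 and 13.6 CPM on CaP Zn0.8Mn0.1Li. Fcgr3, an activating receptor for immunoglobulin G, read 9.41 and 11.3 CPM on CaP Zn, 46.3 and 14.0 CPM on CaP Zn0.8Mn, and 16.0 and 13.1 CPM on CaP Zn0.8Mn0.1Li. For these genes CaP Zn0.8Mn replicate 1 was the highest library, and the other 3 lay closer to CaP Zn. Abcg2, an exporter of porphyrins and drugs, read 4.73 and 4.22 CPM in CaP Zn libraries against 8.85, 7.05, 6.64 and 6.11 CPM with manganese. C1ra, a serine protease of the classical complement pathway, read 5.86 and 4.03 CPM against 11.4, 8.79, 7.18 and 6.97 CPM. The semaphorin receptor Plxna3, Kank3, AI606181, the long noncoding RNA A230028O05Rik and the processed pseudogenes Gm21399 and Hmgn2-ps1 completed the 12. Reads of the pseudogenes can belong to their parent genes. Kank3 overlaps the ribosomal gene Rps28 on the opposite strand, and whether counting used strand is not given in the sources used here.

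Of the 12 below, Rgs16, which shortens signalling by G-protein-coupled receptors, read 13.0 and 12.2 CPM on CaP Zn, 0.595 and 7.37 CPM on CaP Zn0.8Mn, and 9.66 and 6.60 CPM on CaP Zn0.8Mn0.1Li. The log2 fold change was -0.67 (SE 0.17, adjusted p = 0.257 in edgeR) with 5 libraries. Klf2, a transcription factor that restrains inflammatory activation of macrophages, read 11.2 and 11.2 CPM on CaP Zn, 8.19 and 8.60 CPM on CaP Zn0.8Mn, and 8.09 and 8.32 CPM on CaP Zn0.8Mn0.1Li. Its manganese-containing libraries all lay within 8.09 to 8.60 CPM, CaP Zn0.8Mn replicate 1 included, and its log2 fold change was -0.43 with 6 libraries and with 5 (adjusted p = 0.622 in edgeR with 5). The small GTPases Rab15 and Rab20, the histone deacetylase Hdac8, Pecr, a peroxisomal enoyl-CoA reductase, Fn3krp, a kinase that removes sugars from glycated proteins, and Sac3d1 also read lower in all 4. Hdac8 read 12.7 and 10.8 CPM in CaP Zn libraries against 7.005, 10.6, 8.75 and 9.42 CPM with manganese, so that its closest libraries differed by less than the CaP Zn libraries did. The remaining 4 were 1700047I17Rik2, Tmem198b and the pseudogenes Gm10110 and Gm8494, which can share reads with parent genes, and Rab15 and Tmem198b overlap expressed genes on the other strand.

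**Figure D3:**
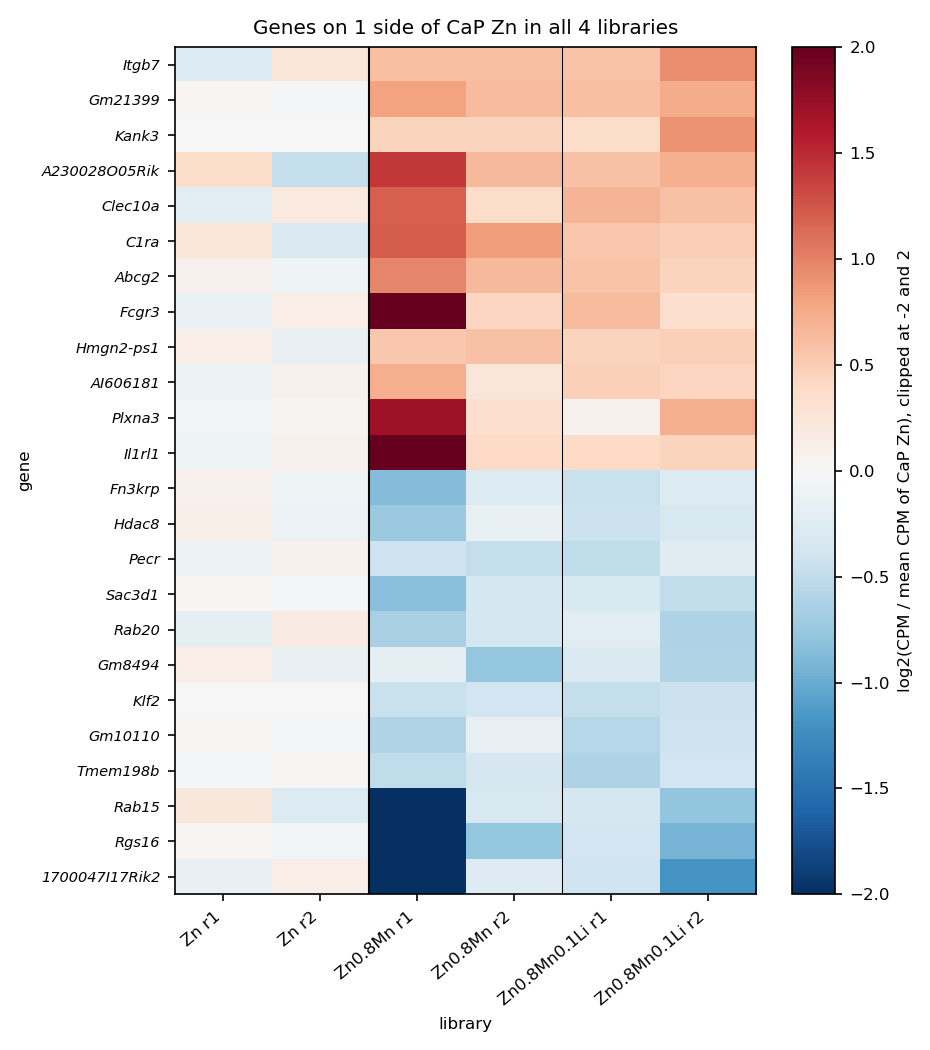
Rows are the 24 genes with all 4 manganese-containing libraries on 1 side of both CaP Zn libraries, columns are the 6 libraries, and the colour is log2 of the CPM over the mean CPM of CaP Zn, clipped at -2 and 2. CaP Zn0.8Mn replicate 1 has the strongest colour for Fcgr3, Il1rl1, Rab15 and Rgs16, while Itgb7, Klf2, Gm21399 and Hmgn2-ps1 are of like colour in most manganese-containing libraries.

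Metallothioneins read higher with manganese in the 5 libraries, and whether they passed the test depended on the fit. Mt1 (chr8:94179082-94180327, plus strand) read 276 and 319 CPM on CaP Zn, 155 and 404 CPM on CaP Zn0.8Mn, and 369 and 478 CPM on CaP Zn0.8Mn0.1Li. Without CaP Zn0.8Mn replicate 1, the only manganese-containing library below CaP Zn, the fold was 1.40 (log2 0.49, SE 0.10, adjusted p = 0.159 in edgeR), and DESeq2 called it (adjusted p = 0.00363). With 6 libraries the log2 fold change of Mt1 was 0.24 (SE 0.43). Mt2 (chr8:94172664-94173568, plus strand) rested on 8 and 11 counts on CaP Zn, 11 and 22 counts on CaP Zn0.8Mn, and 31 and 39 counts on CaP Zn0.8Mn0.1Li, and read 0.430 and 0.704 CPM against 0.727, 1.42, 1.87 and 2.38 CPM. All 4 lay above both CaP Zn values, the lowest by a margin within counting error, and the log2 fold change was 1.75 (SE 0.44, adjusted p = 0.223 in edgeR) with 5 libraries. Of the 3 tested genes of the metallothionein and metal sensor list, 2 had an unadjusted p under 0.05, both higher.

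The metal transporters showed less. Slc30a1, the plasma membrane zinc exporter that MTF-1 also controls, read 26.9 and 31.0 CPM on CaP Zn, 35.4 and 25.9 CPM on CaP Zn0.8Mn, and 31.3 and 26.9 CPM on CaP Zn0.8Mn0.1Li, so the groups overlapped. None of 6 zinc exporters and none of 13 ZIP importers had an unadjusted p under 0.05 in edgeR with 5 libraries, and their median log2 fold changes were -0.043 and 0.041, against -0.0043 over all genes tested. All 6 zinc exporters read lower with 5 libraries, and 5 of the 6 read higher with 6. Slc39a14, a ZIP importer that carries manganese, read 47.1 and 41.8 CPM on CaP Zn, 74.5 and 47.6 CPM on CaP Zn0.8Mn, and 45.0 and 46.4 CPM on CaP Zn0.8Mn0.1Li. Slc11a2, the divalent metal transporter DMT1, read 137 and 141 CPM on CaP Zn, 47.3 and 134 CPM on CaP Zn0.8Mn, and 135 and 147 CPM on CaP Zn0.8Mn0.1Li. Both overlapped between groups. Slc39a8, the other ZIP known for manganese, read between 0.711 and 1.65 CPM in the 6 libraries, too low for a comparison.

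Of 14 tested genes of manganese transport and use, 3 read higher at an unadjusted p under 0.05 and 0 lower. Slc11a1 (NRAMP1), which pumps manganese and iron out of the phagosome, read 103 and 118 CPM on CaP Zn, 115 and 128 CPM on CaP Zn0.8Mn, and 129 and 139 CPM on CaP Zn0.8Mn0.1Li (log2 0.26, SE 0.076, adjusted p = 0.433 in edgeR, 5 libraries). Sod2, the manganese-dependent superoxide dismutase, read 150 and 167 CPM on CaP Zn, 74.5 and 184 CPM on CaP Zn0.8Mn, and 174 and 173 CPM on CaP Zn0.8Mn0.1Li (log2 0.16, SE 0.071, adjusted p = 0.766 in edgeR, 5 libraries, and log2 -0.064, SE 0.37 with 6). The transferrin receptor Tfrc, which admits iron, was the other.

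Iron-handling genes formed the longest of the metal lists and had the largest number of members on 1 side among them. By share above CaP Zn in all 3 libraries, the metallothionein list (3 tested) led, at 66.7% against 41.2%. Of 17 iron-handling genes tested, 6 read higher at an unadjusted p under 0.05 and 0 lower with 5 libraries. In all 3 libraries 7 lay above both CaP Zn libraries and 1 below (10.6% and 10.7% over all genes tested). Their median log2 fold change was 0.092, and 0.11 with 6 libraries. The 6 were Cp, Slc11a1, Fth1, Lcn2, Ftl1 and Tfrc, of which Slc11a1 and Tfrc were also counted in the manganese list. Cp, the copper-dependent ferroxidase ceruloplasmin, read 25.1 and 30.8 CPM on CaP Zn, 31.7 and 36.1 CPM on CaP Zn0.8Mn, and 38.9 and 36.1 CPM on CaP Zn0.8Mn0.1Li, above both CaP Zn values in all 4, though it overlaps Hps3 on the opposite strand. Ferritin heavy chain Fth1 read 5772 and 7763 CPM on CaP Zn, 2370.3 and 9043 CPM on CaP Zn0.8Mn, and 8758 and 9110 CPM on CaP Zn0.8Mn0.1Li. Lcn2, lipocalin 2, which captures bacterial siderophores, read 14.8 and 20.2 CPM on CaP Zn, 5.62 and 59.8 CPM on CaP Zn0.8Mn, and 41.1 and 72.7 CPM on CaP Zn0.8Mn0.1Li. Lcn2 had a fold of 3.31 without CaP Zn0.8Mn replicate 1 (log2 1.73, SE 0.34) but an adjusted p of 0.535 in edgeR, with its manganese-containing libraries spread from 41.1 to 72.7 CPM. It passed with DESeq2 (adjusted p = 0.000983) and in edgeR with the replicate block (adjusted p = 8.89e-09) or without CaP Zn0.8Mn0.1Li replicate 1 (adjusted p = 8.03e-07). With the same 5 libraries Lcn2 did not pass in limma-voom or in edgeR without the filter on low counts. The block uses replicate numbers, which do not mark a shared origin. CaP Zn replicate 1 read below replicate 2 for Cp, Fth1 and Lcn2, and for Fth1 the gap within CaP Zn was larger than that from replicate 2 to the closest of the 3 libraries. Fth1, Ftl1 and Tfrc were picked out after their values were seen.

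Genes of macrophage identity read higher as a group with 6 libraries (22 of 26, median log2 0.34) and less so with 5 (17 of 26, median 0.099). With 5 libraries 7 read higher and 1, the myeloid transcription factor Cebpa, lower at an unadjusted p under 0.05, and 1, Itgam, passed the adjusted test. Adgre1, the surface marker F4/80, read 188 and 216 CPM on CaP Zn, 331 and 269 CPM on CaP Zn0.8Mn, and 258 and 238 CPM on CaP Zn0.8Mn0.1Li (log2 0.33, SE 0.080, adjusted p = 0.192 in edgeR, 5 libraries). The scavenger receptor Cd36, which takes up oxidised lipoprotein, read 194 and 180 CPM on CaP Zn, 349 and 248 CPM on CaP Zn0.8Mn, and 223 and 230 CPM on CaP Zn0.8Mn0.1Li (log2 0.32, SE 0.074, adjusted p = 0.165 in edgeR, 5 libraries). Both lay above CaP Zn in all 4 libraries, highest in CaP Zn0.8Mn replicate 1.

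Markers of the M1 and M2 states, the classical names for inflammatory and repair-type activation, did not separate cleanly. Of 16 tested M1 genes, 2 read higher (Cd86, Socs3) and 1 lower (Irf5) at an unadjusted p under 0.05 with 5 libraries, with a median log2 of -0.045. Nos2, the inducible nitric oxide synthase of M1 macrophages, read 112 and 107 CPM on CaP Zn, 8.79 and 110.1 CPM on CaP Zn0.8Mn, and 107 and 107 CPM on CaP Zn0.8Mn0.1Li. Outside CaP Zn0.8Mn replicate 1 its level did not move by more than the spread of CaP Zn (log2 -0.02, SE 0.070). Cd86, a costimulatory ligand for T cells, read 2.26 and 2.43 CPM on CaP Zn, 9.91 and 3.81 CPM on CaP Zn0.8Mn, and 4.47 and 4.22 CPM on CaP Zn0.8Mn0.1Li, above in all 4 (log2 0.83, SE 0.25, adjusted p = 0.470 in edgeR, 5 libraries). Of 17 tested M2 genes, 6 read higher and 0 lower at an unadjusted p under 0.05 (Clec10a, Socs1, Il1rn, Tgfb1, Mgl2 and Msr1), with a median log2 of 0.19, and 0.45 with 6 libraries. Il1rn, the antagonist of the IL-1 receptor, read 35.0 and 32.9 CPM on CaP Zn, 35.0 and 39.4 CPM on CaP Zn0.8Mn, and 40.8 and 41.2 CPM on CaP Zn0.8Mn0.1Li. The M2 markers Arg1 and Mrc1 were near the floor, apart from 52 counts of Mrc1 in CaP Zn0.8Mn replicate 1. Arg1 had 1 count in that library, and the others held 4 to 14 counts of Arg1 and 2 to 9 counts of Mrc1.

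Pro-inflammatory cytokines and chemokines had a median log2 fold change of 0.21 with 5 libraries and -0.13 with 6. Of 18 tested, 6 read higher and 1 lower at an unadjusted p under 0.05. The higher ones were Ccl9, Ccl6, Ccl2, Cxcl2, Ccl3 and Tnf, attractants of monocytes and neutrophils together with tumour necrosis factor, and the lower one was the interferon-induced Cxcl10. Tnf read 112 and 150 CPM on CaP Zn, 14.0 and 153 CPM on CaP Zn0.8Mn, and 154 and 147 CPM on CaP Zn0.8Mn0.1Li, so that CaP Zn replicate 2 lay within the manganese-containing values. Il1b read 5.11 and 5.95 CPM on CaP Zn, 1.19 and 6.85 CPM on CaP Zn0.8Mn, and 7.18 and 5.07 CPM on CaP Zn0.8Mn0.1Li, and overlapped. Ccl2, the main monocyte attractant, read 10.3 and 10.4 CPM on CaP Zn, 6.67 and 11.5 CPM on CaP Zn0.8Mn, and 15.4 and 18.8 CPM on CaP Zn0.8Mn0.1Li (log2 0.56, SE 0.18, adjusted p = 0.496 in edgeR, 5 libraries), and was picked out after its values were seen. Of the 6 tested colony-stimulating factors and receptors, Csf3 and Csf2ra had an unadjusted p under 0.05, and the median was 0.85 with 6 libraries and -0.010 with 5.

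Genes of adhesion, matrix and bone were examined next, since the materials are of the kind used for implants. Of 21 tested integrin and adhesion genes, 3 read higher (Itgam, Itgb7 and Itgb2) and 2 lower (Itga4 and Itgb5) at an unadjusted p under 0.05 with 5 libraries. With all 4 libraries, Itgb7 and Cd44 lay above CaP Zn and Itga2b below, the last at 1.18 and 1.15 CPM on CaP Zn against 0.132, 1.10, 0.906 and 1.10 CPM. Of 15 matrix and matrix-degrading genes, 4 read higher and 0 lower, namely Spp1, Plaur, Adam8 and Mmp9. Spp1, osteopontin, a secreted protein that binds bone mineral and integrins, read 9148 and 9749 CPM on CaP Zn, 2345 and 13774 CPM on CaP Zn0.8Mn, and 12651 and 14905 CPM on CaP Zn0.8Mn0.1Li. With 6 libraries its log2 fold change was 0.21 (SE 0.68). Without CaP Zn0.8Mn replicate 1 its fold was 1.46 (log2 0.54, SE 0.13, adjusted p = 0.185 in edgeR), and the groups did not overlap. DESeq2 called Spp1 on the same libraries (adjusted p = 1.76e-07), as did edgeR without the filter on low counts. Mmp9, gelatinase B, read 26.6 and 45.9 CPM on CaP Zn, 6.67 and 70.5 CPM on CaP Zn0.8Mn, and 73.6 and 82.7 CPM on CaP Zn0.8Mn0.1Li. Its fold of 2.10 in the 5 libraries had an adjusted p of 0.594 in edgeR, beside a CaP Zn pair that itself differed by 26.6 against 45.9 CPM. With 6 libraries the log2 fold change of Mmp9 was 0.69 (SE 0.89).

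Osteoclast genes showed no common direction, with 9 of 18 reading higher and 9 lower in the 5 libraries and a median log2 of -0.0084. Acp5, an acid phosphatase by which osteoclasts are stained, read 38.8 and 52.1 CPM on CaP Zn, 6.01 and 36.8 CPM on CaP Zn0.8Mn, and 51.6 and 37.2 CPM on CaP Zn0.8Mn0.1Li. Among 15 bone- and vessel-promoting secreted factors, Spp1 and Tgfb1 read higher at an unadjusted p under 0.05 and none lower. Vegfa read 68.2 and 84.6 CPM on CaP Zn, 43.7 and 73.8 CPM on CaP Zn0.8Mn, and 82.5 and 75.7 CPM on CaP Zn0.8Mn0.1Li. The groups overlapped for Acp5 and for Vegfa, whose log2 fold change of 0.02 (SE 0.090) gives a 5-library difference close to 0.

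Lysosome and autophagy genes, which encode the acid hydrolases that digest what macrophages engulf, read higher in 29 of 37 with 5 libraries and in 27 of 37 with 6. At an unadjusted p under 0.05, 10 were higher and 0 lower with 5 libraries, and the median log2 was 0.13, and 0.097 with 6. Ctsd, the aspartic protease cathepsin D, read 932 and 1178 CPM on CaP Zn, 687 and 1497 CPM on CaP Zn0.8Mn, and 1424 and 1432 CPM on CaP Zn0.8Mn0.1Li (log2 0.46, SE 0.10, adjusted p = 0.164 in edgeR, 5 libraries, and log2 0.26, SE 0.35 with 6). Gaa, acid alpha-glucosidase, read 93.4 and 102 CPM on CaP Zn, 111 and 115 CPM on CaP Zn0.8Mn, and 108 and 112 CPM on CaP Zn0.8Mn0.1Li. Gaa, Gusb (beta-glucuronidase) and Gpnmb, a lysosomal glycoprotein of lipid-laden macrophages, lay above CaP Zn in all 4 libraries, and Ctsd in all but CaP Zn0.8Mn replicate 1. Becn1, a regulator of autophagy, was the member below CaP Zn in all 4, at 62.9 and 63.8 CPM against 49.2, 62.8, 60.9 and 61.0 CPM.

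Antigen presentation genes read higher in 17 of 18 with 5 libraries, with 10 above CaP Zn in all 3 and 0 below (10.6% and 10.7% over all genes tested), and in 7 of 18 with 6 libraries. The median log2 was 0.12 with 5 and -0.016 with 6. H2-K1, a class I heavy chain, read 105 and 115 CPM on CaP Zn, 66.7 and 135 CPM on CaP Zn0.8Mn, and 118 and 133 CPM on CaP Zn0.8Mn0.1Li. Of the list, 5 members had an unadjusted p under 0.05, all of them higher, namely H2-K1, H2-D1, Cd74, Psmb8 and Calr.

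Superoxide and peroxide enzymes had 4 of 17 higher (Prdx5, Prdx1, Cyba and Sod2) and 0 lower at an unadjusted p under 0.05. The NRF2, glutathione and thioredoxin list had 1 of 19 higher and 0 lower. Its members on 1 side in all 4 libraries were Txnrd1 and Gclm, both below. Txnrd1, thioredoxin reductase, read 339 and 336 CPM on CaP Zn, 153 and 329 CPM on CaP Zn0.8Mn, and 324 and 332 CPM on CaP Zn0.8Mn0.1Li, so that outside CaP Zn0.8Mn replicate 1 the groups lay close together. The higher one was Gstp1, a glutathione transferase that read 23.4 and 20.5 CPM on CaP Zn, 4.96 and 36.5 CPM on CaP Zn0.8Mn, and 36.2 and 26.7 CPM on CaP Zn0.8Mn0.1Li. Hmox1, the NRF2 target that degrades heme, read 178 and 213 CPM on CaP Zn, 62.7 and 189.8 CPM on CaP Zn0.8Mn, and 222 and 209 CPM on CaP Zn0.8Mn0.1Li, and overlapped. Of 27 unfolded protein response and ATF4 genes, 11 lay above CaP Zn in all 3 libraries and 1 below (10.6% and 10.7% over all genes tested), with a median log2 of 0.056. Ddit3 (CHOP), the stress factor of that pathway, read 155 and 191 CPM on CaP Zn, 16.3 and 214 CPM on CaP Zn0.8Mn, and 257 and 223 CPM on CaP Zn0.8Mn0.1Li (log2 0.42, SE 0.093, adjusted p = 0.159 in edgeR, 5 libraries, and log2 0.039, SE 0.91 with 6). Ddit3 overlaps Mars, and Prdx5 overlaps Trmt112, on the opposite strand. Gstp1, Ddit3, the Prdx genes, H2-K1 and Psmb8 were picked out after their values were seen.

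Interferon-stimulated genes, the antiviral programme downstream of type I interferon, read mostly lower with both sets of libraries. Of 34 tested, 27 read lower with 5 libraries and 26 of 35 with 6, with median log2 fold changes of -0.14 and -0.22. At an unadjusted p under 0.05, 0 were higher and 5 lower (Oas3, Ddx58, Rtp4, Oas1g and Oasl2), against 2.76% of all genes lower. Oas3, which makes the second messenger that activates RNase L, read 255 and 226 CPM on CaP Zn, 106 and 202 CPM on CaP Zn0.8Mn, and 197 and 207 CPM on CaP Zn0.8Mn0.1Li, below CaP Zn in all 4 (log2 -0.25, SE 0.073, adjusted p = 0.428 in edgeR, 5 libraries). Stat2, a subunit of the interferon-activated factor, was the other member below in all 4, at 41.9 and 39.1 CPM in CaP Zn libraries against 36.6, 37.5, 38.6 and 36.6 CPM.

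NF-kB subunits and feedback genes read lower in 16 of 20 with both sets of libraries, with medians of -0.105 with 5 and -0.14 with 6. Birc3, Nfkb2, Relb and Bcl2a1b lay below CaP Zn in all 4 libraries (3.25% over all genes tested), and none of the 20 lay above (3.54%). Relb, a subunit of the non-canonical pathway, read 29.6 and 31.2 CPM on CaP Zn, 20.02 and 25.5 CPM on CaP Zn0.8Mn, and 26.6 and 24.4 CPM on CaP Zn0.8Mn0.1Li (log2 -0.25, SE 0.10, adjusted p = 0.726 in edgeR, 5 libraries). Nfkb2 read 69.2 and 69.9 CPM on CaP Zn, 41.4 and 66.0 CPM on CaP Zn0.8Mn, and 58.9 and 63.8 CPM on CaP Zn0.8Mn0.1Li. Bcl2a1b has near-identical paralogs that can share its reads.

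**Figure D4:**
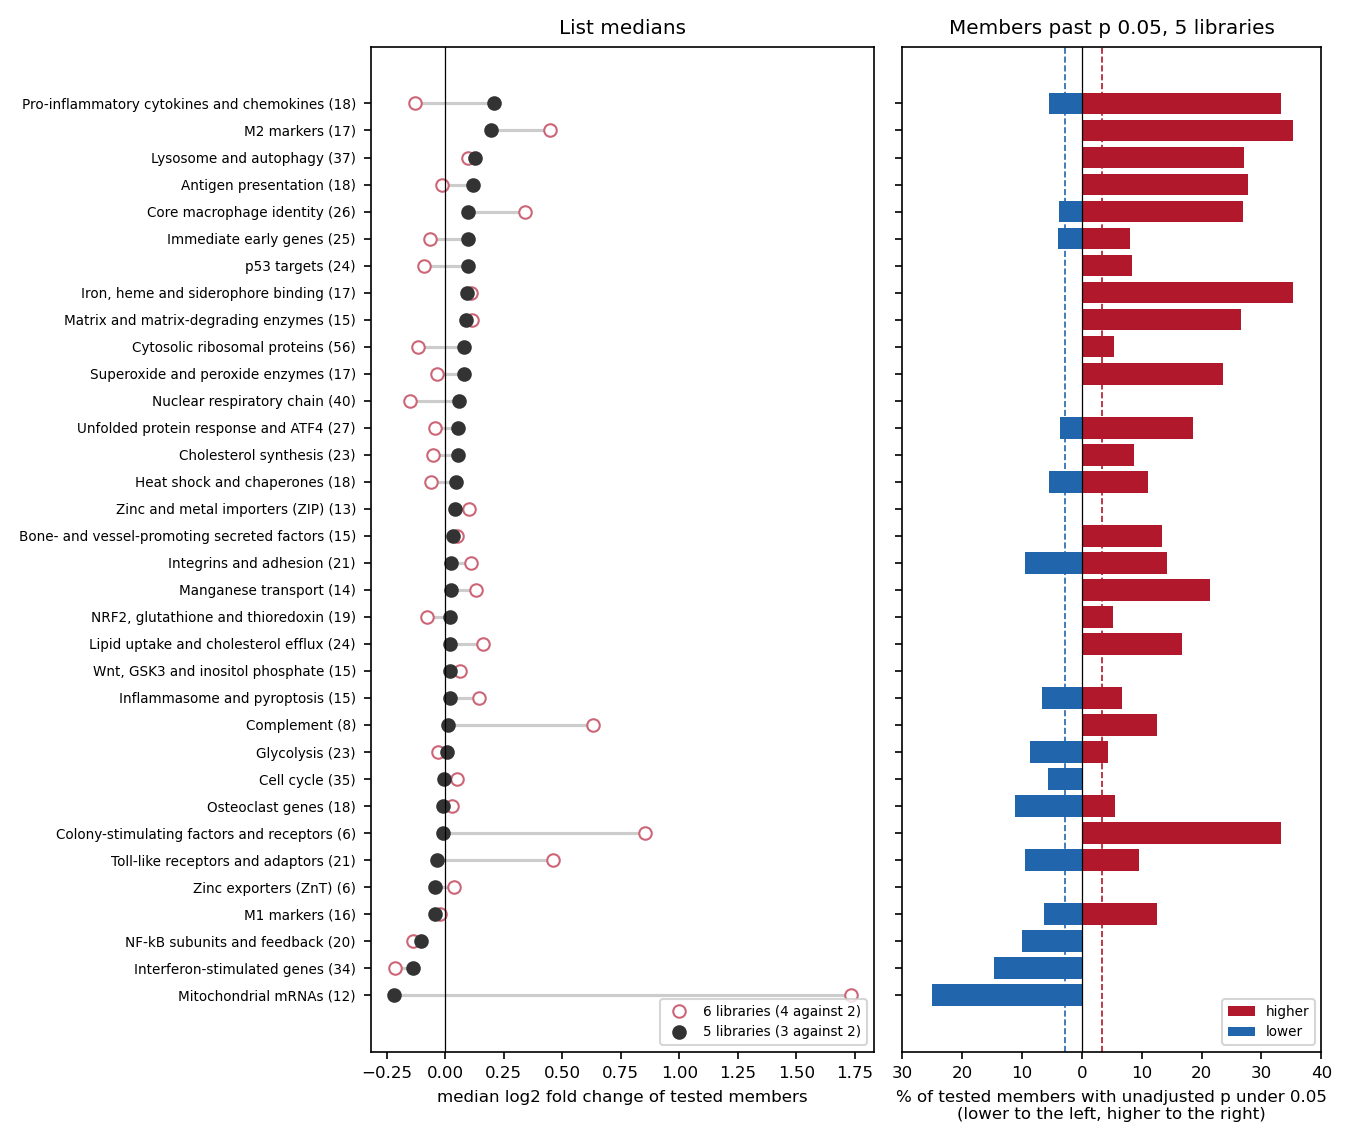
The left panel gives the median log2 fold change of the tested members of each gene list with at least 5 tested members (number tested in brackets), with open points for 6 libraries and filled points for 5. The right panel gives the percent of tested members with an unadjusted p under 0.05 in the 5-library fit, lower to the left and higher to the right, and dashed lines mark 2.76% and 3.41%, the shares over all genes.

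Several medians moved with CaP Zn0.8Mn replicate 1. Mitochondrial mRNAs had a median log2 fold change of 1.73 with 6 libraries, 12 of 12 higher, and of -0.22 with 5, 9 of 12 lower. Cytosolic ribosomal proteins read lower in 49 of 56 with 6 libraries and higher in 50 of 56 with 5, with medians of -0.12 and 0.079, and nuclear respiratory chain genes lower in 34 of 40 and higher in 35 of 40, with medians of -0.15 and 0.057. Library totals in place of TMM moved the 5-library median of all genes from -0.0043 to -0.054, and list medians were not computed with that scaling. For Toll-like receptors and adaptors the median was 0.46 with 6 libraries and -0.037 with 5, and for complement 0.63 and 0.011. The share of mitochondrial counts in CaP Zn0.8Mn replicate 1 was 7.88%, and the part of this share in the medians was not tested. The cell cycle, Wnt and inflammasome lists had medians of -0.0067, 0.021 and 0.019 in the 5 libraries. Cdk1, the kinase that starts mitosis, read 90.8 and 75.0 CPM on CaP Zn, 64.3 and 72.7 CPM on CaP Zn0.8Mn, and 62.2 and 72.4 CPM on CaP Zn0.8Mn0.1Li, and was the lone cell cycle gene below in all 4.

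Pooling the alloys assumes that lithium adds nothing to a gene, and each gene was also tested between the alloys, CaP Zn0.8Mn0.1Li over CaP Zn0.8Mn. With 6 libraries 0 of 13156 genes differed at an adjusted p under 0.05 in edgeR (0%), and 316 had an unadjusted p under 0.05. With 5 libraries 2 of 12965 differed (0.0154%), the pseudogene Gm10123 and the mitochondrial large ribosomal RNA mt-Rnr2, with 1 library of CaP Zn0.8Mn taken to vary like the others. Reads of Gm10123, a processed pseudogene, can belong to its parent gene. Gm10123 read 905 and 902 CPM on CaP Zn, 108 and 387 CPM on CaP Zn0.8Mn, and 748 and 913 CPM on CaP Zn0.8Mn0.1Li. It was higher with lithium by 1.10 on the log2 scale (SE 0.15, adjusted p = 0.0136 in edgeR), and the low level was in both CaP Zn0.8Mn libraries. mt-Rnr2 read 183 and 173 CPM on CaP Zn, 2616 and 236 CPM on CaP Zn0.8Mn, and 147 and 118 CPM on CaP Zn0.8Mn0.1Li (log2 -0.83 for the alloy with lithium, SE 0.11, adjusted p = 0.0136 in edgeR). Neither was among the genes that read the same way on both alloys.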

How the data were processed

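Polyadenylated RNA from 6 RAW264.7 samples was sequenced after an Illumina TruSeq preparation, per the labels' protocols. The tables the authors deposited hold unnormalized counts of reads for 54532 genes, and FPKM values, which are counts per gene length and library size. For the aligner, counter and strand setting, the sources used here give no name. Build mm9 is named in the submitters' processing notes, whereas 98.3% of 54495 matched gene identifiers have GRCm38 positions in the deposited tables, so coordinates are printed as GRCm38. The tables hold 0 columns of other samples.

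Groups came from the treatment labels. Counts were fitted with edgeR 4.0.16 in R 4.3.3 (TMM factors, genes kept by filterByExpr, robust quasi-likelihood fit, Benjamini-Hochberg adjustment, threshold 0.05, two-sided tests) as 2 groups. CPM values are TMM-scaled and standard errors are the log2 fold change over the root of F. Depth was 14944070 to 17709290 counts per library, and floors of 3 counts cover counting error only, since reads carried no molecular identifiers. Replicates of a group were further apart than counting noise allows (chi-square per gene 10.6, 248 and 5.71, scaled by totals without TMM), and each was kept as a replicate. That spread may be technical only and does not show that replicates were separate cultures. Same-numbered libraries correlated at 0.31, -0.22 and -0.10 in their deviations from group means, so the numbers were not taken as pairs. The scripts were tested on simulated data.

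Members and the 41 gene lists were chosen with earlier results of these data known. Named genes were called genes, the 12 largest in each direction among genes of at least 5 CPM with all 4 libraries on 1 side (with no fold minimum, since fewer than 5 genes had 1.5-fold on each alloy), up to 3 such members per list, and 24 genes listed whatever their values. Those said to be picked out after their values were seen, and members listed for an unadjusted p under 0.05, fall outside that rule. Alternatives were other scalings, DESeq2 1.42.0, limma 3.58.1 (voom, weights, and log2 of FPKM plus 1 or 0.1 for genes of mean FPKM at least 1), other filters, the replicate block, group means, a 1.5-fold minimum, removal of mitochondrial genes, and removal of each library in turn. Promoters are RefSeq windows, matched for 72 of 98 named genes.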

Additional observations from a re-analysis of the deposited data

Results flagged for a closer look

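Of 98 named genes, 34 had a library far from the other 3 of the manganese-containing group, by a gap to the nearest that exceeded Dixon's 95% critical value for 4 samples. Chance gives such a gap in about 1 in 20 groups of unselected genes, but 23 of the 98 had been picked with their values in view, and these hold 11 of the 34. The other 75 hold 23. All of those 75 but the 24 listed whatever their values were chosen by rules that used values of these same libraries. Neither count can therefore be set against the rate for unselected genes. In 32 of the 34 the library was CaP Zn0.8Mn replicate 1, and what set it apart was not tested.

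CaP Zn0.8Mn replicate 1 was the highest of the 4 for 14 genes. Receptors and surface proteins among them were Cd14 650.2 CPM (others 325 to 378 CPM), Cd86 9.91 CPM (others 3.81 to 4.47 CPM), Fcgr3 46.3 CPM (others 13.1 to 16.0 CPM), Gpnmb 1028 CPM (others 371 to 389 CPM), Il1rl1 47.7 CPM (others 13.1 to 13.6 CPM), Itga4 5118 CPM (others 271 to 316 CPM) and Mrc1 3.44 CPM (others 0.122 to 0.543 CPM). The others were A230028O05Rik 9.05 CPM (others 5.07 to 5.56 CPM), Aco1 75.7 CPM (others 57.4 to 59.5 CPM), Chac1 11.2 CPM (others 4.95 to 5.37 CPM), Hsp90aa1 662 CPM (others 447 to 469.6 CPM), mt-Rnr2 2616 CPM (others 118 to 236 CPM), Plin2 115 CPM (others 90.1 to 93.8 CPM) and Slc39a14 74.5 CPM (others 45.0 to 47.6 CPM).

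It was the lowest of the 4 for 18 genes. For lysosomal, iron and metal genes the levels were Ctsd 687 CPM (others 1424 to 1497 CPM), Ctsl 376 CPM (others 1219 to 1240.2 CPM), Fth1 2370.3 CPM (others 8758 to 9109.6 CPM), Ftl1 1184 CPM (others 5005 to 5255 CPM), Slc11a2 47.3 CPM (others 134 to 147 CPM) and Tfrc 132 CPM (others 304 to 307 CPM). For antioxidant enzymes they were Prdx1 453 CPM (others 902 to 966 CPM), Prdx5 93.5 CPM (others 336 to 349.7 CPM), Sod2 74.5 CPM (others 173 to 184 CPM) and Txnrd1 153 CPM (others 324 to 332 CPM). For genes of inflammation and adhesion they were Cfp 59.5 CPM (others 340.3 to 387 CPM), Itgam 65.0 CPM (others 136 to 139.8 CPM), Itgb2 286 CPM (others 350.3 to 360.2 CPM), Mmp9 6.67 CPM (others 70.5 to 82.7 CPM), Nos2 8.79 CPM (others 107 to 110.1 CPM), Oas3 106 CPM (others 197 to 207 CPM), Qpct 4.96 CPM (others 18.0 to 20.04 CPM) and Tnf 14.0 CPM (others 147 to 154 CPM). CaP Zn0.8Mn0.1Li replicate 2 was the highest of the 4 for Itgb7 32.0 CPM (others 25.0 to 25.6 CPM) and Kank3 8.07 CPM (others 5.61 to 5.95 CPM).

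The alloys differed from each other for Gm10123, with a log2 difference of 1.10 for CaP Zn0.8Mn0.1Li over CaP Zn0.8Mn in the 5-library edgeR fit, and for mt-Rnr2, with -0.83. The alloys also lay on opposite sides of CaP Zn for mt-Rnr2 with all 6 libraries, at a log2 ratio of mean CPM of 3.00 without lithium (CaP Zn0.8Mn) and -0.43 with it. The first value rests on CaP Zn0.8Mn replicate 1 and is 0.40 with replicate 2 alone. The difference between the alloys had an adjusted p of 0.680 in edgeR with 6 libraries.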

How the results depend on the processing

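With 6 libraries every setting called 0 genes, except that leaving out CaP Zn0.8Mn replicate 1 gave 2, so leaving out libraries gave 0 to 2. With 5 libraries the 2 calls became 0 with library totals (median log2 of all genes -0.054), limma-voom with quality weights, log2(FPKM + 1), log2(FPKM + 0.1) or a 1.5-fold minimum, 4 with group means of the 3 alloys, 45 with DESeq2 (4273 adjusted p not given) and 87 without a filter. RLE, limma-voom, a mean count of at least 100 and leaving out mitochondrial genes gave 2. Libraries left out in turn gave 0 to 416. The replicate block gave 6 calls with 5 libraries (Lcn2, Saa3, Csf3, Itgam, Qpct and Gm11007) and 0 with 6, and the numbers do not mark a shared origin. Csf3 had an adjusted p in edgeR of 0.0063 to 0.0962 and Itgam up to 0.266 when manganese-containing libraries were left out. Genes above CaP Zn in all 4 libraries numbered 277 with library totals and 277 at a mean count of at least 100, where fewer genes were tested, and those below 776 and 277. With libraries left out they ranged from 737 to 1843 above and 698 to 1893 below. An order among fewer libraries is met more easily, so these counts are not like for like. Log2 fold changes that changed sign with 6 libraries were Slc39a8 (-0.012 with library totals, -0.053 with limma-voom, -0.32 with quality weights, -0.0084 with no filter), Csf3 (-0.17 with limma-voom, -0.082 with log2(FPKM + 0.1)) and Spp1 (-0.10 with limma-voom, -0.10 with log2(FPKM + 1) and -0.10 with log2(FPKM + 0.1)). With quality weights these were Hmox1 (0.088), Il1b (0.22), Slc30a1 (-0.020), Sod2 (0.16), Tnf (0.21) and Vegfa (0.036), and Vegfa with 5 libraries and library totals (-0.027). Leaving out libraries turned, with 6, Hmox1 (-0.35 to 0.082), Il1b (-0.34 to 0.21), Slc30a1 (-0.071 to 0.13), Slc39a8 (-0.27 to 0.22), Sod2 (-0.17 to 0.16), Tnf (-0.36 to 0.21) and Vegfa (-0.30 to 0.019). With 5 it turned Acp5 (-0.32 to 0.11), Hmox1 (-0.040 to 0.22), Nos2 (-0.051 to 0.021), Slc11a2 (-0.050 to 0.020), Slc30a1 (-0.15 to 0.056), Slc39a14 (-0.024 to 0.15), Vegfa (-0.13 to 0.18) and mt-Rnr2 (-0.43 to 0.10). The causes were not tested. With 2 CaP Zn libraries and 3 residual degrees of freedom, a gene that was not called is not shown to be unchanged.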
